A study of Drosophila melanogaster with 2 samples.

Results

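Of the 1725 peaks of the tagged repressor aop that both replicates of an embryo ChIP-seq experiment yielded together, 527 had their summit inside an intron and away from promoters. ChIP-seq recovers the DNA held by a chosen protein and maps it to the genome. Members were chosen by position alone. The summit had to lie more than 500 bp from every annotated transcription start site (TSS), within a gene and in no exon. Of the 1692 peaks on the chromosome arms, 883 lay within 500 bp of a TSS, 218 were intergenic and 64 were exonic. The comparator was the 53938 intronic candidates, regions of the authors' ranked list that obey the same rule of position and overlap no peak of the thresholded list. In all, 527 of 54469 intronic candidates (0.968%) were in the thresholded list, against 3.99% of TSS-proximal and 0.641% of intergenic candidates.

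The samples were whole Drosophila melanogaster embryos aged 0 to 24 h, so all tissues and all stages of embryogenesis were mixed. They came from the transgenic strain aop-GFP, in which an insertion targeting aop yields the protein joined to the fluorescent tag eGFP. Chromatin was sonicated to 200 to 800 bp, and an anti-GFP antibody pulled down the tagged protein. The labels give 2 biological replicates of 1 group, and do not name the promoter of the tagged construct. Control libraries were not analysed here, and the read depth behind the lists is unknown.

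The gene aop (anterior open, also called Yan) encodes an ETS-domain repressor at the end of the receptor tyrosine kinase pathway. Active MAP kinase phosphorylates aop and removes it from the nucleus, which lets the activator Pointed (pnt) use the same DNA sites, built on a GGAA core. Long first introns of Drosophila genes often hold enhancers, the stretches of DNA through which such factors act on a distant promoter.

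The sequences under the strongest members carry the results that follow, and 3 kinds of element are written in capitals, on either strand. The first is the ETS octamer, which is CGGAA with A or C before it and A or G, then C or T, after it. The second is GAGAGAG, the repeat bound by GAGA factor. The third is ACAGTG, a 6-base word with no factor assigned here. All windows are the 201 bases centred on the summit, from Release 6 of the genome (dm6, RefSeq), plus strand, 5′ to 3′. The following are the 5 strongest members with an ETS octamer.
sty chr3L:3418404-3418604: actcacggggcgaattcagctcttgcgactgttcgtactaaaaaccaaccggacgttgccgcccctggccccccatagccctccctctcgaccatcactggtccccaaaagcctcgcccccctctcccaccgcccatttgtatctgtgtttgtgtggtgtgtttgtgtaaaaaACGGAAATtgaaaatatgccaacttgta
aop chr2L:2171739-2171939: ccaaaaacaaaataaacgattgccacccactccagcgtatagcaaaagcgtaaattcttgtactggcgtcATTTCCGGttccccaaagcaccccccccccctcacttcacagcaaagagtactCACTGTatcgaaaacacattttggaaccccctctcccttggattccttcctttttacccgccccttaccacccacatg
Raf chrX:2317494-2317694: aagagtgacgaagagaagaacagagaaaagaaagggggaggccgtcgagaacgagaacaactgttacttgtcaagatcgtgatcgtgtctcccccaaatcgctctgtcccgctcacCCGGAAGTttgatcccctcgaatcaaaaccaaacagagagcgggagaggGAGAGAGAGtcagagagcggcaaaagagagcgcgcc
cic chr3R:20253838-20254038: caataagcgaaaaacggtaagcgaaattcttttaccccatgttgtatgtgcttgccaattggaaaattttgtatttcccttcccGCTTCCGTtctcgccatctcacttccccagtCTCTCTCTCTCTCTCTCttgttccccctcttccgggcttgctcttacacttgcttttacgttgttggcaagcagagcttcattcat
Mkp3 chr3L:19079245-19079445: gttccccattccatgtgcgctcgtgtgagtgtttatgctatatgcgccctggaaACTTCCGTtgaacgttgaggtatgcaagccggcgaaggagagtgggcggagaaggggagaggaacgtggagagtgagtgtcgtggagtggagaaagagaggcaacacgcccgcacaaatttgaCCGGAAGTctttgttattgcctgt
The following are 3 of the strongest members with an ACAGTG to the left and its reverse complement, CACTGT, to the right of the summit, both inside the window.
NFAT chrX:13640432-13640632: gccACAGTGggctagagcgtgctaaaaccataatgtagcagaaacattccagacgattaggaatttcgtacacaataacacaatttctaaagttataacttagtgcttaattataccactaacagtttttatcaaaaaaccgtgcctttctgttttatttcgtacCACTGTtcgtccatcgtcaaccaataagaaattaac
Hr4 chrX:1963846-1964046: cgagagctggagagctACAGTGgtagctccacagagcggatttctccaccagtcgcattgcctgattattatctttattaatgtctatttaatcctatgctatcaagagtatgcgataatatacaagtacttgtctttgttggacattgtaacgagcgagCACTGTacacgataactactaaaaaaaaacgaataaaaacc
CG32264 chr3L:3785123-3785323: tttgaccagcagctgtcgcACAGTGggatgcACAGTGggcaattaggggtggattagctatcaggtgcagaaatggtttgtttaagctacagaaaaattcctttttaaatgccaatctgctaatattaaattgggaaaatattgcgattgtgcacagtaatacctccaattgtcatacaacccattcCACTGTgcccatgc
The strongest member with a GAGA repeat and neither of the other elements, and the strongest with none of the 3, were as follows.
CG9663 chr2L:3302061-3302261: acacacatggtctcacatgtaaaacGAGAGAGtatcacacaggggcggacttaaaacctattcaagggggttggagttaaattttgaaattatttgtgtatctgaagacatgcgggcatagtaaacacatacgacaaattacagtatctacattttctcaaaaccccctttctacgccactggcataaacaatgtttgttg
CG11050 chr2L:6612607-6612807: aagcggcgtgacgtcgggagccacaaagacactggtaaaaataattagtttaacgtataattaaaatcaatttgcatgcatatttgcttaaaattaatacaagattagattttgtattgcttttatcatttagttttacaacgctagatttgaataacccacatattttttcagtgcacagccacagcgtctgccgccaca

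The members were led by the first intron of sty, far ahead of all others. The gene sty encodes Sprouty, an intracellular inhibitor of receptor tyrosine kinase signalling that is itself a target of the pathway. Its peak (3L, 3418360 to 3418658) had a signal of 1468 in the list of both replicates, and its candidate signals were 485 in replicate 1 and 976 in replicate 2, first in rank in both. The signal is the authors' measure of enrichment, with an unstated scale, and was used only within a list. The second member, at the 140-bp intron 2 of CG11050 and reaching past both of its ends (2L, 6612628 to 6612805), had a signal of 411, with 155 in replicate 1 and 249 in replicate 2. Next came a pair in the first intron of aop itself, with 406 (2L, 2162301 to 2162672) and 399 (2L, 2171754 to 2171967). Their signals were 136 and 118 in replicate 1, and 256 and 271 in replicate 2. The sty peak thus ranked first in each replicate, and the members that followed it had signals close to one another.

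The other members among the 15 strongest included another one of aop and one of Raf, the kinase that activates the MAP kinase cascade. They lay in HmgZ, an HMG-box chromatin protein (signal 341), CG9663 (313), CG32772 (312), Tlk, the tousled-like protein kinase (299), CG46321 (275), LPCAT, a lysophospholipid acyltransferase (272), aop again (267), CG32486 (259), the transcription factor gene Adf1 (250.1), Raf (225) and norpA, a phospholipase C (225). All 15 were in both replicates' own lists. Members as a whole had a median signal of 65.1 (interquartile range 54.7 to 88.5, range 2.69 to 1468). Outside the list the 527 strongest intronic candidates had a median of 44.0 and all 53938 had 15.3.

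**Figure D1:**
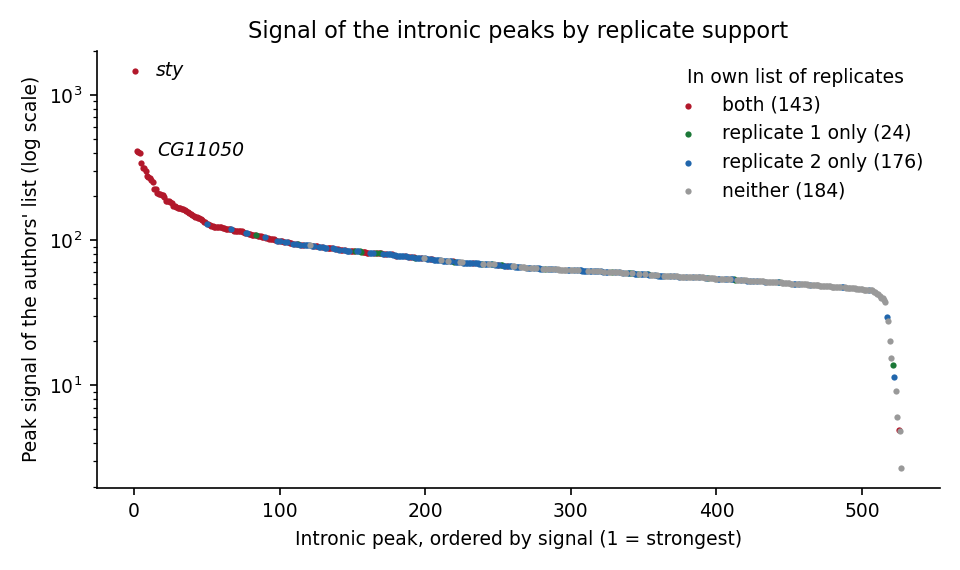
Signal of each of the 527 intronic peaks (vertical axis, log scale, authors' unit) against its order by signal, coloured by whether it overlapped a peak in the own list of both replicates, of 1 or of neither. The sty peak stands alone at 1468, and peaks in neither own list fill the lower part of the order.

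Threshold and signal did not coincide exactly. Of the intronic candidates outside the list, 12 exceeded the members' median signal, the strongest being in Lk6 (459, 3R, 11760959 to 11761137) and ush (412, 2L, 481000 to 481193). Both of these had the highest score, 1000, as did those in trx (161), COX7AL2 (152) and tara (121), and 21 candidates outside the list reached its lowest score of 830. Conversely, 8 members had a signal under 20, the lowest being 2.69 in fz2. Of these, 5 overlapped a stronger member by 41 to 57 bp and were matched to the same candidates in the replicates, as was a sixth weak member in plh (29.3). They lay in fz2, CG4496, Ih, aop and grh, so each such pair is not independent. At the limit of 500 bp, the closest members were in lace (signal 111) and CG43658 (92.8), both 503 bp from a TSS. Just inside it, and so not members, were peaks at ph-p (410.1, 496 bp) and CG9921 (61.3, 489 bp). The sty member was itself 543 bp from a TSS.

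A minority of members was found in both replicates separately. Each replicate had its own thresholded list, of 628 peaks in replicate 1 and 1142 in replicate 2. An overlap of 1 bp or more was found in both own lists for 143 members (27.1%, exact binomial 95% interval 23.4 to 31.1), in replicate 2 alone for 176, in replicate 1 alone for 24, and in neither for 184. Support followed signal, with 96 of 106 members of the top signal quintile in both own lists and 89 of 106 of the bottom quintile in neither. Nearly all members still stood among the unfiltered candidates, 515 in replicate 1 and 526 in replicate 2. The authors' conservative list held 419 members (79.5%, 75.8 to 82.9).

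Signals of the 514 members with a candidate in both replicates had a Spearman rho of 0.461, a description over peaks that share libraries and locus, with no p. The replicate 2 value exceeded the replicate 1 value at 438 of them (85.2%), with a median ratio of 1.48 (interquartile range 1.15 to 1.93). The median ratio was 1.48 at TSS-proximal peaks too. The scaling of the replicates' lists is not stated, so the ratio does not compare binding. The largest gaps in rank among members in 1 own list were at mbc, a myoblast fusion gene, with 44.4 in replicate 1 (rank 343) and 10.1 in replicate 2 (rank 65219), and at Roc2 (7.99, rank 58967, and 38.4, rank 1075). Those at fz2, Traf4 and Abl, the last a cytoplasmic tyrosine kinase gene, were likewise in replicate 2 alone, with signals of 42.2, 42.3 and 40.1 there and 8.32, 9.11 and 11.1 in replicate 1.

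**Figure D2:**
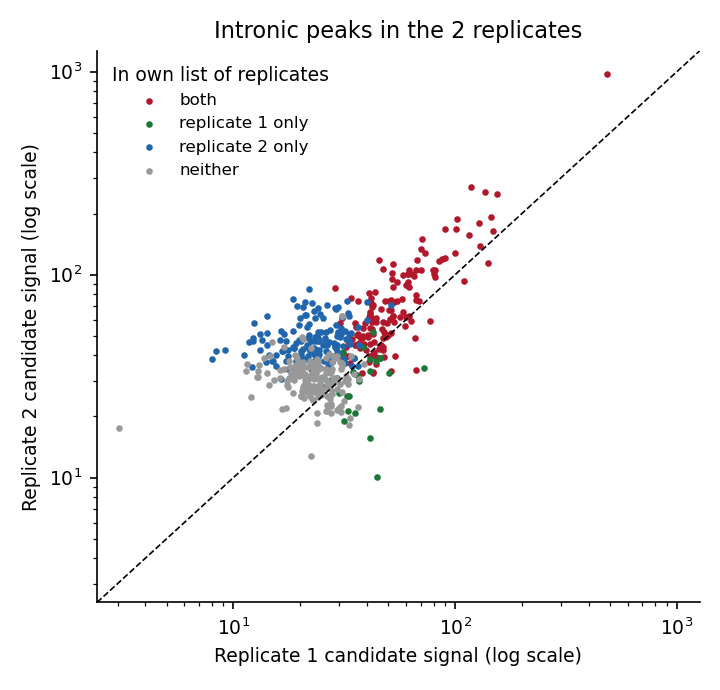
Candidate signal in replicate 1 (horizontal) and replicate 2 (vertical), both log scales in the authors' unit, for the 514 intronic peaks with a candidate in both, coloured by own-list support. The dashed line marks equal values, and 438 points lie above it.

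The members lay closer to promoters and more often in first introns than other intronic candidates. Their median distance to the nearest TSS was 2333 bp (interquartile range 1106 to 5057), against 5308 bp (2266 to 11956) for the candidates outside the list. Distances of 500 to 1000 bp held 21.4% of members and 8.09% of candidates, and those over 10000 bp held 10.1% and 30.3%. The strongest 527 candidates outside lay between them, at 2975 bp. A first intron, counted in the transcript with the longest coding sequence, held 311 members (59.0%, 54.7 to 63.2), against 34.3% of candidates and 50.7% of the strongest 527 (46.3 to 55.0). Members upstream of the coding sequence numbered 219 (41.6%, 37.3 to 45.9), against 31.9% of candidates. With the smallest intron number over all transcripts, 73.6% of members and 45.5% of candidates were in a first intron.

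**Figure D3:**
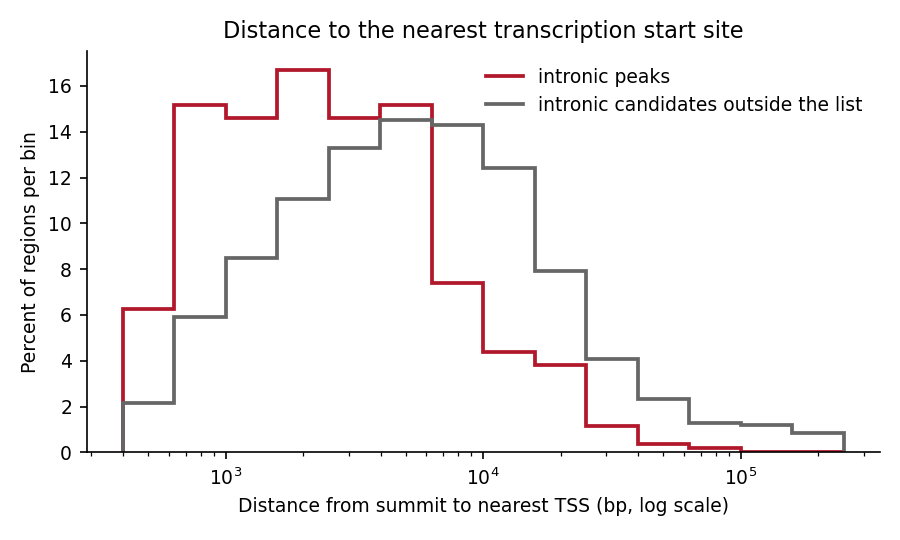
Percent of regions per bin of distance from the summit to the nearest TSS (log scale, bp) for the 527 intronic peaks and the 53938 intronic candidates outside the list. The peaks are shifted towards short distances, with medians of 2333 and 5308 bp.

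Base composition differed from that of the candidates too, though not from that of the other classes of peaks. Windows of members had a median GC content of 40.3% (interquartile range 35.3 to 47.3), against 44.3% (39.8 to 48.8) in candidates outside and 44.8% in the strongest of these. TSS-proximal and intergenic peaks had medians of 40.3% and 40.5%. Soft-masked repeats covered a median of 15.4% of a member's window and 11.4% of a candidate's, and 7 members were masked over more than 50%. The median was 15.9% at TSS-proximal and 11.9% at intergenic peaks. Per megabase (Mb) of intron open to the rule, arms 2L, X, 3L and 2R held 12.2, 11.4, 10.8 and 10.1 members, and 3R held 7.30, against 9.80 over all arms. Candidates were spread more evenly, at 977 to 1050.5 per Mb on these 5 arms. No member was on arm 4 or Y, where 20 and 97 intronic candidates lay. The X chromosome held 41 of 143 members in both own lists (28.7%, 21.4 to 36.8) and 116 of all 527 (22.0%, 18.5 to 25.8). It held 19.8% of candidates outside, within the interval of all members, and 13.7% of the strongest 527 of these. The shares were 15.1% of TSS-proximal and 10.6% of intergenic peaks.

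ETS octamers were present under a small minority of members. They stood within 100 bp of the summit of 31 members (5.88%, 4.03 to 8.25), against 4.37% of candidates outside and 5.88% of the strongest 527 of these (4.03 to 8.25). The interval of the members' share therefore included both. Between the quartiles of the members' GC content, the octamer was in 11 of 277 members (3.97%, 2.00 to 6.99) and in 4.32% of candidates outside. The share was 11 of 106 (10.4%, 5.30 to 17.8) in the top signal quintile of members and 4 of 106 (3.77%, 1.04 to 9.38) in the bottom one. It was 8.39% (4.41 to 14.2) among the 143 in both own lists. The other classes had larger shares than all members, with 7.02% (5.43 to 8.91) of TSS-proximal and 8.26% (4.97 to 12.7) of intergenic peaks. The bare CGGAA core was no more common in members (27.1%) than in candidates (28.3%). The strict 9-base site ACCGGAAGT occurred in the members of Mkp3 (signal 123) and neur (69.1). That is 0.380% of members (0.0460 to 1.36), against 0.169% of candidates outside and 0.569% of the strongest 527 of these. The strict site was in 0.566% of TSS-proximal and 2.75% of intergenic peaks. Mkp3 encodes the phosphatase that inactivates MAP kinase, and neur an E3 ubiquitin ligase of Notch signalling.

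The sites themselves varied in letters. In the printed windows, sty had ACGGAAAT on the plus strand 77 bp right of its summit, aop CCGGAAAT on the minus strand 26 bp to the left, and Raf CCGGAAGT on the plus strand 20 bp to the right. The gene cic, which encodes the repressor Capicua that MAP kinase also inactivates, had ACGGAAGC on the minus strand 12 bp to the left. Mkp3 had ACGGAAGT and CCGGAAGT, and sgl, a UDP-glucose dehydrogenase gene (signal 61.1), was the other member with a pair of octamers, ACGGAAGC and ACGGAAAT. Over the 33 sites the most frequent forms were ACGGAAGC and CCGGAAAT with 6 each, and CCGGAAGT with 5. Per 1000 windows these came to 11.4, 11.4 and 9.49 in members, against 4.67, 6.49 and 4.15 in candidates outside. The form ACGGAAAT went the other way, at 7.59 in members and 11.4 in candidates.

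The octamer was more frequent among members in genes of the receptor tyrosine kinase pathway than among the other members. Hosts in that list held 47 members, of which 9 had the octamer (19.1%, 9.15 to 33.3), against 22 of 480 members in all other hosts (4.58%, 2.89 to 6.86). The 9 lay in sty, Raf, cic, Mkp3, aos, pnt (2) and aop (2). Candidates outside the list in the same 16 hosts had an octamer in 29 of 518 cases (5.60%, 3.78 to 7.94). Without aop the shares were 7 of 33 members (21.2%, 8.98 to 38.9) and 28 of 504 candidates (5.56%, 3.72 to 7.93). The 2 groups of members also differed in replicate support. In both own lists were 19 of the 47 (40.4%, 26.4 to 55.7) and 124 of the 480 (25.8%, 22.0 to 30.0). The split by host was chosen after the values were seen and has no test.

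GAGA repeats were more frequent in members than in all candidates outside, but not than in the strongest of them. GAGAGAG lay within 100 bp of 39 summits (7.40%, 5.32 to 9.98), against 3.27% of all candidates outside and 8.73% (6.46 to 11.5) of the strongest 527. The repeats lay mostly off the summit. Around members, 236 repeats were counted up to 250 bp out, and 14.4% lay within 50 bp and 34.3% between 100 and 150 bp, against 23.9% and 19.3% of 8996 repeats around candidates. Overlapping matches in long repeats were each counted, so these sites are not independent.

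Among all 2080 six-base words, counted with their reverse complements, ACAGTG showed both the largest difference and, of the 1764 words found in at least 20 members, the largest ratio. It was in 137 members (26.0%, 22.3 to 30.0), against 8.35% of candidates outside and 16.7% (13.6 to 20.2) of the strongest 527. Between the quartiles of the members' GC content the shares were 29.2% of members and 8.20% of candidates. The word was picked from these same windows, so its share is a description. It was in 34.3% (26.5 to 42.7) of the 143 members in both own lists and in 22.3% (16.5 to 29.0) of the 184 in neither. On single arms the share ran from 20.5% on 3L to 32.8% on X. In peaks of other classes, which the ranking of words had not used, it was in 21.4% of TSS-proximal peaks (18.7 to 24.3) against 9.07% of their candidates outside, and in 15.6% of intergenic peaks (11.0 to 21.1) against 7.51%. Of the 31 members with an ETS octamer, 4 had ACAGTG.

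Copies of ACAGTG were uneven in place and direction relative to the summit. Within 250 bp of members' summits there were 298 copies, of which 42.3% lay 50 to 100 bp away and 6.71% within 25 bp, against 21.4% and 10.6% of 11539 copies around candidates. Copies to the left of the summit mostly read ACAGTG on the plus strand (86, against 31 on the minus strand), and those to the right mostly on the minus strand (91, against 35 on the plus strand). So 177 of 243 copies within 150 bp read towards the summit (72.8%, 66.8 to 78.3), against 49.8% (48.7 to 51.0) of 7207 copies around candidates and 59.1% (50.7 to 67.0) of 149 around the strongest 527. At TSS-proximal peaks 62.3% (56.7 to 67.7) of 313 copies did so.

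**Figure D4:**
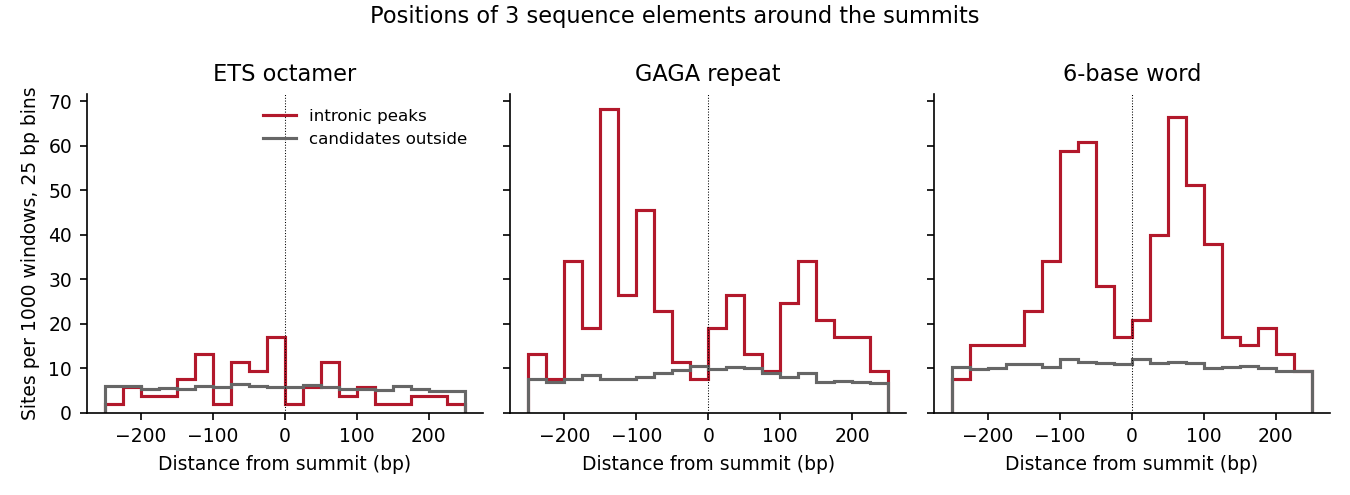
Sites per 1000 windows in 25 bp bins by distance from the summit (bp, plus strand to the right) for the ETS octamer, the GAGA repeat and the 6-base word, in 527 intronic peaks and 53938 intronic candidates outside the list. The 6-base word has a maximum on each side of the summit, 60.7 per 1000 windows at 50 to 75 bp to the left and 66.4 at 50 to 75 bp to the right, with 17.1 and 20.9 in the bins next to the summit.

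Some copies stood in facing pairs across the summit. A plus-strand ACAGTG within 150 bp to the left together with a minus-strand copy within 150 bp to the right was found in 39 members (7.40%, 5.32 to 9.98), against 0.247% (0.207 to 0.292) of candidates outside and 1.90% (0.914 to 3.46) of the strongest 527. The other arrangements across the summit were rare in members, with 2 pairs back to back, 7 both on the plus strand and 6 both on the minus strand. The facing copies of members stood a median of 154 bp apart, centre to centre, with an interquartile range of 143 to 167.5 bp and a range of 87 to 198 bp. The search limits this spacing, since each copy had to lie within 150 bp of the summit. Medians were similar in facing pairs of candidates outside (160 bp, interquartile range 132 to 180) and of the strongest 527 (153.5 bp). They were 178 bp at TSS-proximal and 160 bp at intergenic peaks. In 37 of the 39 members the spacing was 120 to 200 bp, against 87 of 133 pairs in candidates outside and 9 of 10 in the strongest. It was so in 24 of 31 pairs at TSS-proximal and 7 of 8 at intergenic peaks. In NFAT, the fly member of the NFAT family of transcription factors, the copies of the printed window stood 94 bp left and 68 bp right of the summit. Those of the nuclear receptor gene Hr4 stood at 81 and 63 bp.

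The members with facing pairs had signals from 47.5 in Evi5 to 186 in NFAT, with a median of 81.0. Facing pairs were present in 12.6% (7.63 to 19.2) of members in both own lists and in 2.72% (0.888 to 6.23) of those in neither. Their windows were masked as repeats over a median of 10.9%, and none over more than 50%. The X chromosome held 18 of the 39, so that 15.5% of the 116 members on X (9.46 to 23.4) and 5.11% of the 411 on other arms (3.19 to 7.70) had one. Facing pairs were also found at 31 of 883 TSS-proximal peaks (3.51%, 2.40 to 4.95) and 8 of 218 intergenic peaks (3.67%, 1.60 to 7.10). The counts describe these windows, and no factor was tied to the word.

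The letters around ACAGTG were uneven as well. Over 173 copies within 100 bp of a member's summit, C stood immediately before the word in 41.6%, G was the second base before it in 49.1%, and G followed it in 56.1%. Of the 216 eight-base words found in at least 20 members, CCACTGTA had the highest ratio, in 30 members (5.69%) against 0.636% of candidates outside. The words CACTGTGC (43 members, 8.16% against 1.19%) and CACAGTGG (40 members, 7.59% against 1.12%) also hold ACAGTG or its complement. Others near the top did not, among them CACTGAGA (30 members, 5.69% against 0.794%).

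Other motifs were searched as well. Sought on both strands in the same windows were CACACACA repeats, the DREF site TATCGATA, the Zelda site CAGGTAG, the AP-1 site TGANTCA, the Su(H) site GTGGGAA, the Runt site AACCACA, the GATA site AGATAA, the Tinman site CACTTGA, the E-boxes CATATG of Twist, CAGGTG of Snail and CAGCTG, the homeodomain site TAATTA, the Scalloped site GGAATG, the Stat92E site (TTC and GAA 3 bases apart), the Ftz-F1 site CAAGGTCA, the Grainyhead site AACCGGTT, the Pho core GCCAT, the M1BP site GGTCACACT, the TCF site TTTGAAG and the Mef2 site. With the 3 ETS forms, the bare core among them, and the GAGA repeat these made 24, some of which overlap. Members were above all candidates outside, with intervals that left the candidates' share out, for CATATG (9.87%, 7.46 to 12.7, against 6.21%), GATA (13.7%, 10.8 to 16.9, against 9.17%), Zelda (2.28%, 1.18 to 3.94, against 1.09%) and Mef2 (7.02%, 4.99 to 9.55, against 4.38%). They were below them for the Pho core (28.1%, 24.3 to 32.1, against 41.0%), the Scalloped site (6.45%, 4.51 to 8.90, against 10.9%) and CAGCTG (6.64%, 4.67 to 9.12, against 9.28%). Against the strongest 527 candidates outside, the members' interval still left out the share for CATATG (5.69%, 3.87 to 8.03), GATA (10.2%, 7.79 to 13.2) and the Pho core (36.1%, 31.9 to 40.3). The intervals of members and of the strongest overlapped for each of these motifs. No allowance was made for the number of motifs searched. The members' interval included the share of the strongest for Zelda (1.52%), Mef2 (5.12%), the Scalloped site (8.73%) and CAGCTG (8.54%). It left out that share for AP-1 and Runt, for which it had included the share of all candidates. AP-1 was at 3.42% (2.04 to 5.34) in members and 6.07% (4.19 to 8.46) in the strongest. Runt was at 3.42% (2.04 to 5.34) and 1.71% (0.784 to 3.22). These intervals overlapped as well. The members' GC content was lower than the candidates'. Between the quartiles of the members' GC content, the candidates' share still lay outside the members' interval for CATATG (13.4%, 9.58 to 17.9, against 6.88%), the Pho core (29.6%, 24.3 to 35.4, against 40.6%) and the Scalloped site (6.50%, 3.90 to 10.1, against 10.2%). The same held there for GAGAGAG (6.14%, 3.62 to 9.64, against 3.15%) and, narrowly, for Tinman (2.17%, 0.799 to 4.65, against 4.67%). There the intervals included the candidates' share for GATA (36 of 277 members, 9.27 to 17.5%, against 10.3%), Mef2 (6.50%, 3.90 to 10.1, against 4.59%), Zelda (2.53%, 1.02 to 5.14, against 1.04%) and CAGCTG (7.94%, 5.04 to 11.8, against 8.34%). The DREF site was in 3 members (0.569%) and the M1BP site in none (exact interval up to 0.698%), against 5.78% and 2.38% of TSS-proximal peaks.

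The 527 members lay in 383 host genes, of which 375 are protein-coding. That is 4.12% of the 9111 protein-coding genes with intron sequence open to the rule, and 16.0% of the quintile with the most such sequence. Most hosts, 295, had 1 member, and 29 had 3 or more. With the own list of replicate 2 in place of the joint list 10 hosts had 3 or more, and with that of replicate 1 there were 6. Among hosts, 25.3% also had a peak within 500 bp of a TSS, against 8.79% of all 9111 genes. Within the quintile with the most intron sequence, which held 291 of the 375 hosts, these shares were 27.8% and 13.2%. Within 5000 bp of another member lay 160 members (30.4%), those of aop and the overlapping pairs included. No share over candidates is set beside this count.

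The gene aop had the most members, 14, all in its first intron and within 14167 bp (2L, 2162301 to 2176467). Their signals ran from 6.04 to 406, and 5 were in both own lists, 6 in replicate 2 alone and 3 in neither. This is the gene from which the tagged protein is made, so values without it are given beside results it could carry. The gene sbb, which encodes a transcriptional corepressor, had 7 members (60.7 to 133), of which 5 were clustered within 7691 bp. Raf had 5 (53.3 to 225) and Tlk 5 (48.9 to 299), with 3 of each in both own lists. Ptp61F, a tyrosine phosphatase that restrains JAK/STAT signalling, and jing, a zinc-finger gene, had 5 each, none in both own lists. The others with 4 were CHES-1-like, a forkhead factor gene (up to 138), pnt (106), plh (93.2) and mew (70.6), which encodes an integrin subunit.

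**Figure D5:**
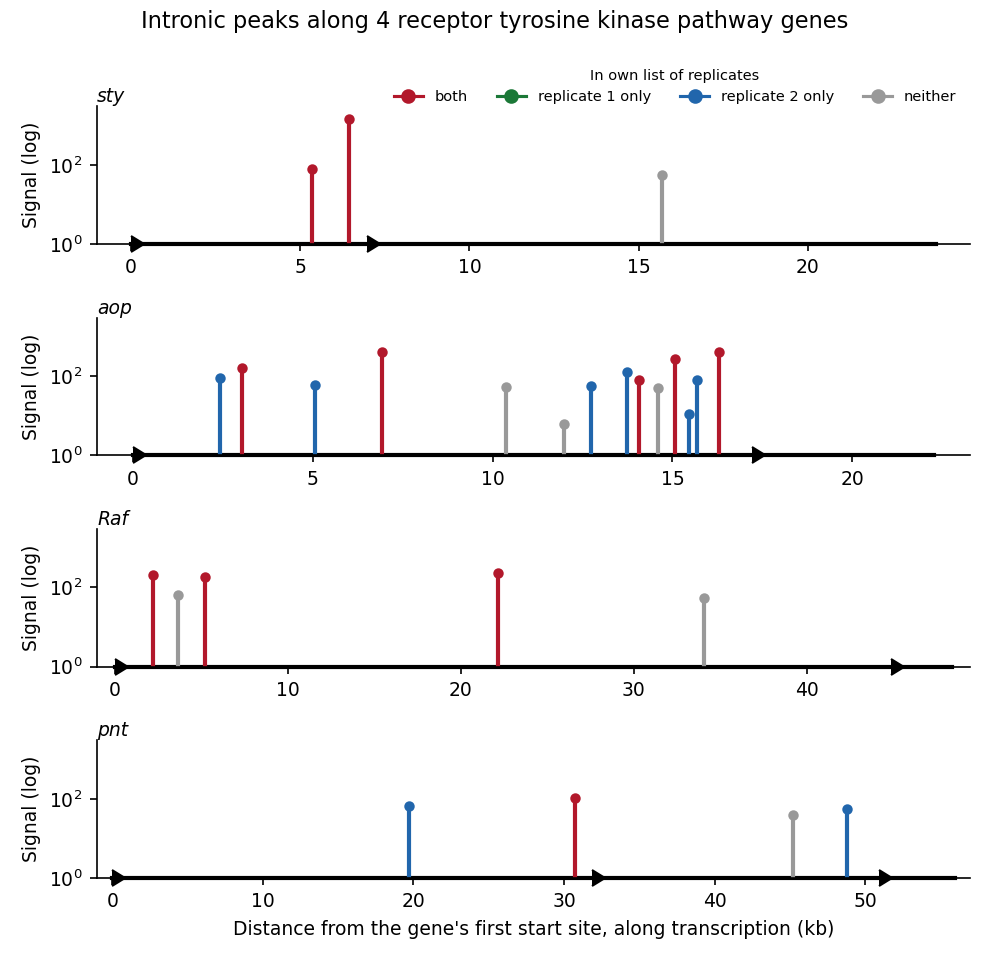
Intronic peaks along sty, aop, Raf and pnt, each drawn from its first start site in the direction of transcription (kb, horizontal), with signal on a log scale (vertical) and colour by own-list support. Triangles mark annotated start sites. The 14 peaks of aop are spread over 14167 bp of its first intron, while the strongest peak of sty stands 6431 bp from the gene's first start site and just before the second.

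Hosts were frequent in the receptor tyrosine kinase and MAPK pathway. Of the 50 genes of that list with open intron sequence, 16 had a member (32.0%, 19.5 to 46.7), at 64.7 members per Mb against 9.46 over all protein-coding genes. Without aop these were 46.5 and 9.21. The genes of the list had long introns, with a median of 9570 bp of open sequence against 464 bp for all genes. The list was drawn up with earlier results of these data known, so its count is no independent evidence.

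Ordered by role, the hosts covered the pathway from ligand to nucleus. Ligands and their processing were represented by the FGF ligand ths (strongest signal 89.0), the PDGF- and VEGF-related ligand Pvf3 (71.3), the Alk ligand jeb (61.1), the rhomboid protease ru (57.9) and Star, S (111), a chaperone of EGF receptor ligands. The secreted EGF receptor inhibitor argos, aos (118), had 3 members, of which 2 were in both own lists. At the membrane were the insulin receptor InR (129) and the adhesion molecule Echinoid, ed (63.3). Inside the cell were the adaptor drk (91.2), the kinase Raf (225), sty (1468) and the phosphatase Mkp3 (123). In the nucleus were aop (406), pnt (106), cic (166) and edl (161), a SAM-domain protein that binds both Yan and Pointed.

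For Raf the 5 members were all in intron 2, with signals in the list of both replicates of 206, 65.0, 180, 225 and 53.3 in order from the start of the gene. The 3 strong ones were in both own lists and the other 2 in neither. At pnt, the member with 106 was in both own lists (49.5 in replicate 1 and 57.9 in replicate 2), and those with 66.4, 38.8 and 55.5 were not. At cic the stronger member had 61.7 in replicate 1 and 106 in replicate 2, and at aos the stronger had 54.5 and 73.9. At Mkp3 the single member had 50.5 in replicate 1 and 73.9 in replicate 2, and lay 6949 bp from a TSS.

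Other signalling lists had hosts too, to be read against 4.12% of all genes with open intron sequence, 16.0% of the quintile with the most, and 9.46 members per Mb over all genes. Dpp and BMP genes had a member in 8 of 19 (42.1%, 20.3 to 66.5; 43.7 per Mb), led by the glypican dlp (96.1), the zinc-finger factor shn (92.7), the ligand dpp (85.4) and the receptor wit (83.1). Wingless genes had one in 6 of 20 (30.0%, 11.9 to 54.3; 18.6 per Mb), led by the receptor fz (121), the coreceptor arr (72.7), the kinase sgg (61.8) and the antagonist nkd (56.6). Notch genes had one in 3 of 17 (17.6%; 24.2 per Mb), the receptor N (88.2), neur (73.1) and the coactivator mam (58.7). JAK/STAT genes had one in 2 of 12 (46.8 per Mb), with 5 of the 6 members in Ptp61F. Hedgehog genes had one in 2 of 12 (15.9 per Mb).

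Lists of tissues and cell processes ranged from none to well above the density of all genes. That density itself differed with the open intron sequence per gene. It was 18.5 members per Mb for genes with 861 to 5067 bp, and 8.72 for the quintile with the most. The ecdysone response had hosts in 4 of 13, led by Hr4 at 167 and with the receptor EcR at 79.9 (11.4 per Mb). Neuroblast and neuron fate had 4 of 16, led by brat at 133 (17.2 per Mb), and epithelial polarity 4 of 25, led by cno at 158 (17.4 per Mb). Mesoderm and muscle had 4 of 26, led by kirre at 93.7, at the density of all genes (9.46 per Mb). The tracheal system had 3 of 13, with hth at 83.9 and pyd at 63.3 after sty (19.6 per Mb), and growth control 3 of 14, led by ex at 88.3 (30.7 per Mb). Polycomb group and Trl had 3 of 18 (46.9 per Mb), with 5 of the 7 members in jing. The strongest member of these lists after sty was in Trl (206), the gene of GAGA factor itself. Glia had 2 of 13 (37.9 per Mb), with 4 of the 5 members in pnt, which is also in the receptor tyrosine kinase list. Cell death had 1 of 6, Diap1 at 84.1 (90.9 per Mb, over 0.0220 Mb). Below the density of all genes were axon guidance (7 of 30, 6.74 per Mb), Hox genes and cofactors (1 of 10, 5.14 per Mb) and ion channel and synaptic genes (2 of 27, 3.35 per Mb). The dpr and DIP cell surface genes, with 0.977 Mb of open intron and a median of 20342 bp each, had none in 30 (upper limit 11.6%). The list of ETS-domain factors had members in aop and pnt, and in edl, which stands in that list although its protein lacks an ETS domain. None was found in cell cycle genes (0 of 16, upper limit 20.6%), gap and pair-rule genes (0 of 11, 28.5%), cytoplasmic ribosomal proteins (0 of 11, 28.5%) or odorant and gustatory receptors (0 of 18, 18.5%). These lists held little open intron in all, 0.0608, 0.0321, 0.00262 and 0.00746 Mb in that order.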

How the data were processed

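The data were peak lists from anti-GFP ChIP-seq of aop-eGFP embryos, 2 biological replicates of 1 group. The authors deposited lists on dm6 made by the irreproducible discovery rate (IDR) procedure, per the file headers and the text list deposited with each library. The read depth, aligner and peak caller were not stated in these sources. The deposited score is capped at 1000 and is at least 830 in thresholded lists. The deposited signal is the caller's enrichment measure, of unstated scaling, and the ranked lists also hold the −log10 of the global IDR, by the authors. Replicates were called separately, and the main list of 1725 peaks draws on both.

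Members were classified by summit against Ensembl release 115 gene models, transposons left out. The host was the protein-coding gene holding the summit, the shortest where several did. Candidates were regions of the 147076-line ranked list. Motifs were searched on both strands in 201-bp windows with Python 3.11.15, numpy 2.4.6, pandas 2.3.3 and scipy 1.17.1. Intervals are exact binomial (Clopper-Pearson, 95%) and cover counting error only, since neighbouring regions are not independent. No test between conditions was possible with 1 group. The counting steps were tested on simulated data.

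Genes named were the 15 strongest members, those nearest the 500-bp limit, hosts of 4 or more, all hosts of the receptor tyrosine kinase list and up to 4 of each other list, members with the strict site or 2 octamers, and the 5 largest rank gaps in 1 own list. Genes with facing pairs, outside candidates and overlapping members were named after their values were seen. The members and lists were chosen with earlier results of these data known. Of 528 gene list entries, 515 matched. Alternatives were other lists, windows and backgrounds, each replicate left out, and aop left out. The last, and all for ACAGTG, were chosen after seeing the data.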

Additional observations from a re-analysis of the deposited data

How the results depend on the processing

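Of 110 alternative values, 80 stayed within the range of the main value, 29 moved and 1 reversed. The cause was not tested. With 1 replicate's own list in place of the joint list there were 176 to 347 intronic peaks, 28.0 to 30.4% of peaks were intronic, the median TSS distance was 1915.5 to 2130 bp, 6 to 10 hosts had 3 or more peaks, and ACAGTG was in 26.5 to 35.8% of peaks, at a ratio of 3.16 to 4.24 over candidates. The conservative list put 31.4% of intronic peaks in both own lists. The stronger part of the list by signal gave 266 peaks, a median distance of 1932 bp, 8 hosts with 3 or more, and 53.4% in both own lists. A TSS limit of 250 bp gave 35.0% intronic and 1870 bp. A limit of 1000 bp gave 24.0%, 3386.5 bp and 54.3% in first introns, and leaves out the sty peak. The smallest intron number over transcripts gave 73.6%. Motif windows of 50 bp gave 3.23% for the ETS octamer, 2.85% for GAGAGAG (ratio 1.61) and 9.87% for ACAGTG (ratio 2.33). Windows of 250 bp gave 10.6%, 19.4% and 38.3% (ACAGTG ratio 2.09). Against the strongest candidates outside, the GAGAGAG ratio reversed, at 0.848 against 2.27 over all candidates, and the ACAGTG ratio was 1.56. In the alternatives run, the ETS octamer ratio ranged over 1.00 to 1.78, and 13 to 16 receptor tyrosine kinase genes were hosts. The alternative for GC content limited the candidates alone to the quartiles of the members' GC content. With members limited in the same way, which was not among these alternatives, their octamer share was below that of the candidates. The members' interval there included the candidates' share, as given with the ETS octamers above. No paired analysis was possible because the series has 1 group. Read depth is unknown, so no detection limit can be given for the 184 peaks in neither own list.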

Other observations

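The ranked list that supplied the candidates holds, for each region, its values in the inputs that the IDR procedure compared. Of these values, 5.53 to 5.85% were found among the signals of either replicate's own ranked list. In a further ranked list of 144671 lines, 63.3% of the first input's values were found in replicate 1 and 70.1% of the second's in replicate 2. The inputs of the list used here therefore did not match the replicates' own lists, and which inputs they were is not given in the sources used here.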
